A study of Mus musculus with 20 samples.

Results

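Of the 20 cochlear RNA-seq libraries in the series, 8 form one set at postnatal day 7 (P7), and theirs were the only deposited values that behave as TPM (transcript abundance scaled to a common total in every library) rounded to whole numbers. They comprised 4 libraries of *Bai1* tm2b/+ mice, the controls, and 4 of their *Bai1* tm2b/tm2b littermates, chosen by the genotype, age and replicate number (1 to 4) in their labels. The mice were C57BL/6N of both sexes, each library was a pool of 4 mice by the labels, and the tissue was the sensory epithelium with the spiral ganglion neurons, taken by the study's account from the apical coil. Both genotypes carry the tm2b allele, so there was no wild-type group, and the allele is present in every cell of the animal. In tm2b, exons 3 and 4 of *Adgrb1*, the gene for BAI1, are deleted and a lacZ reporter with a splice acceptor remains, which by the study removes the long isoform and spares the short one. Of 24411 gene rows, 11740 had a mean of at least 5 TPM over the 8 libraries and were tested.

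BAI1 is an adhesion G protein-coupled receptor with thrombospondin repeats outside the cell. Inside the cell it can engage ELMO and DOCK proteins to activate the GTPase Rac, and it binds scaffolds of the postsynaptic density. In the cochlea, inner hair cells release glutamate onto spiral ganglion afferents, whose AMPA receptors carry the sound signal to the brain. P7 precedes the onset of hearing in mice. The comparison asked whether loss of the long isoform changes the cochlear transcriptome at that age.

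The deposited values summed to between 999644 and 999777 TPM in each library, so the number of reads behind them is unknown. Spearman correlations between libraries ran from 0.968 to 0.993 over the genes tested. Summed markers of spiral ganglion neurons were between 3056 and 4947 TPM, those of supporting cells between 5452 and 6619 TPM and those of hair cells between 555 and 804 TPM. Summed Schwann cell and peripheral myelin markers reached 13521 to 26345 TPM, bone markers 3363 to 5519 TPM and erythroid markers 2651 to 5259 TPM. Skeletal muscle markers summed to at most 11 TPM. Among brain neuron markers, *Gabra6* and *Gad2* were listed at 0 in all 8 libraries, whereas the glial markers *Gfap* (107 to 176 TPM) and *Aqp4* (59 to 108 TPM) were present in all.

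*Adgrb1* was examined first, as the targeted gene. It lies on chromosome 15 (GRCm38, chr15:74516195-74589465, plus strand). The exons that tm2b lacks are shown because they define the genotype. They lie at chr15:74538298-74538459 (162 bases) and chr15:74539203-74539313 (111 bases) of transcript Adgrb1-201 in GENCODE M21, read 5′ to 3′ on the plus strand, as follows.
Exon 3: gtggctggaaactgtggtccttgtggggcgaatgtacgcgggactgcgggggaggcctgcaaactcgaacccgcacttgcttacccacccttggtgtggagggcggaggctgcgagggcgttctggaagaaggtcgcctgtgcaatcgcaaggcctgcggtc
Exon 4: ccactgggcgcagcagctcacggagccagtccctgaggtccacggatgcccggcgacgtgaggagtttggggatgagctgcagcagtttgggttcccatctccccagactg
The deposited value is 1 number per gene, which joins transcripts with and without these exons, so it does not by itself check the genotype of a library. *Adgrb1* had 10, 12, 8 and 7 TPM in the *Bai1* tm2b/+ libraries and 9, 9, 10 and 12 TPM in the *Bai1* tm2b/tm2b libraries. The genotypes overlapped, with means of 9.25 ± 2.22 and 10 ± 1.41 TPM (SD, n = 4). The log2 fold change, given throughout as *Bai1* tm2b/tm2b over *Bai1* tm2b/+ on log2(TPM + 1) after scaling, was 0.02 (standard error 0.13). An exact 2-sided permutation test gave p = 0.886, and 0.0286 is the smallest p that 8 pools split evenly allow. The sign of this value changed with the scaling and with the library left out, from -0.07 to 0.12 over the latter, and the value was -0.30 after removal of each library's trend on transcript length and GC content. In the 6 other P7 libraries, deposited as counts, *Adgrb1* had 35.5, 61.5 and 39.4 CPM (counts scaled by library size) in the controls against 29.6, 23.8 and 34.3 CPM, and the groups did not overlap. The log2 fold change there was -0.64 (standard error 0.23, edgeR adjusted p = 0.894). The difference between the sets was 0.60 (standard error 0.26, limma adjusted p = 0.261), and it was not called.

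The paralog *Adgrb2* had 20, 20, 18 and 17 TPM in the controls against 23, 25, 22 and 29 TPM in *Bai1* tm2b/tm2b, and the groups did not overlap. Its log2 fold change was 0.27 (standard error 0.07, limma adjusted p = 0.0499), below the 0.5 that a call required. *Adgrb3* lay under the minimum for testing, with 2 to 4 TPM in the controls against 3 to 6 TPM in *Bai1* tm2b/tm2b. Neither of the 2 family members tested was called, nor were the 3 AMPA receptor subunit genes tested. *Gria4*, the most abundant of them, had 25, 30, 25 and 21 TPM against 26, 24, 24 and 32 TPM, with overlapping groups and a log2 fold change of -0.04 (standard error 0.10). *Gria3* had 13, 15, 12 and 10 TPM against 14, 17, 15 and 18 TPM, a log2 fold change of 0.24 (standard error 0.10, limma adjusted p = 0.118). *Gria1* was at 5 to 6 TPM against 5 to 7 TPM (log2 fold change -0.05, standard error 0.10), and *Gria2*, at 3 to 5 TPM against 4 to 7 TPM, was not tested. The signs of the *Gria1* and *Gria4* differences turned without scaling beyond TPM, when they were 0.05 and 0.07.

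Of the genes that act with BAI1 inside the cell, 14 of 16 were tested and none was called. Their median log2 fold change was 0.20, beside 0.01 over all genes tested. *Rac1*, the GTPase at the end of this pathway, was at 308 to 333 TPM in the controls against 324 to 376 TPM in *Bai1* tm2b/tm2b (log2 fold change 0.02, standard error 0.07), a sign that turned with median centring. *Rhog*, which acts upstream of Rac, was at 53 to 59 and 56 to 64 TPM. Of the AMPA receptor auxiliary and trafficking genes, 11 were tested and none was called, with a median of 0.23. The members with the highest levels were *Nsf*, an ATPase of membrane fusion that binds AMPA receptors, at 46 to 74 and 59 to 96 TPM (0.41, standard error 0.16, limma adjusted p = 0.103), and *Cacng7*, an AMPA receptor auxiliary subunit, at 36 to 47 and 45 to 56 TPM (0.24, standard error 0.08, limma adjusted p = 0.0670).

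Across all genes tested, 79 genes (0.673%) were called higher and 18 (0.153%) lower in the libraries labelled *Bai1* tm2b/tm2b. To be called, a gene needed a limma adjusted p value below 0.05, a difference of over 0.5 on the log2 scale and a standard error below 0.5. The adjusted p value alone was below 0.05 for 559 higher and 383 lower genes (limma), most of which fell short of the fold threshold. All 97 calls had adjusted p values between 0.0435 and 0.05, close under the threshold. These p values set the difference between genotypes against the spread between pools. At an unadjusted p value under 0.05, 2172 genes (18.5%) were higher and 1885 (16.1%) lower. The groups of 4 did not overlap for 1735 genes (14.8%), for 53 of the 79 higher calls and for 9 of the 18 lower calls. Overlap and rank within groups were judged throughout on the deposited TPM, whereas the log2 fold changes were taken after TMM scaling. The TMM factors were 0.909 to 1.01 in the controls and 1.02 to 1.07 in *Bai1* tm2b/tm2b, so scaling lowered the latter relative to the controls. The calls rested on particular libraries. In 70 of the 79 higher calls, *Bai1* tm2b/tm2b library 1 was the lowest of its group or tied for it, and *Bai1* tm2b/+ library 3 or 4 was often the lowest of the controls (48 and 53 genes). No gene was called when *Bai1* tm2b/+ library 2, 3 or 4 or *Bai1* tm2b/tm2b library 2, 3 or 4 was left out, with smallest adjusted p values of 0.0634 to 0.122 while 2897 to 3772 genes were below 0.05 without adjustment (limma). Without *Bai1* tm2b/tm2b library 1, by contrast, 271 genes were higher and 61 lower, and without *Bai1* tm2b/+ library 1, 110 and 29. Of the calls, 81.4% were in the direction of higher values with TMM scaling, 96.9% with no scaling beyond TPM, which put the median difference over all genes at 0.12 (log2), and 56.4% with median centring.

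**Figure D1:**
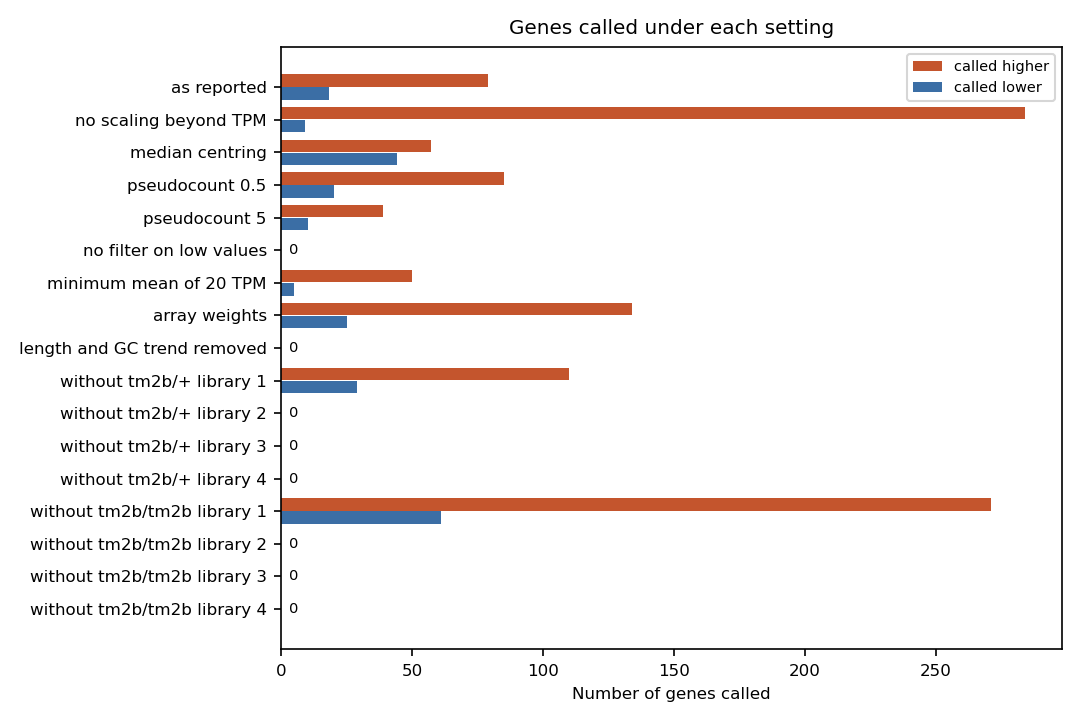
Number of genes called in each direction for *Bai1* tm2b/tm2b against the controls (horizontal bars, in genes) as reported and with 1 choice of processing or 1 library changed at a time. The reported 79 and 18 calls went to 0 when any 1 of 6 libraries was left out, without the filter on low values and after removal of each library's trend on transcript length and GC content, and rose to 271 and 61 without *Bai1* tm2b/tm2b library 1. The fit with a replicate block, which also gave 0 and 0 calls, is not drawn.

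The gene with the largest increase was *Tecta* (chr9:42329619-42399929), which encodes alpha-tectorin, a protein of the tectorial membrane made by supporting cells. It had 97, 88, 34 and 81 TPM in the controls against 187, 178, 134 and 208 TPM in *Bai1* tm2b/tm2b, with no overlap. The means were 75 ± 28.1 and 177 ± 31.1 TPM (SD, n = 4), a log2 fold change of 1.20 (standard error 0.27, limma adjusted p = 0.0439). In tissue pools, more cells of a type and more RNA per cell cannot be told apart. Control library 3 was low, and without it the log2 fold change was 0.87. That library also had the highest summed stria, pigment cell and fibrocyte markers of the 8, whose part in the *Tecta* difference was not tested. *Otog*, which encodes otogelin, another component of the gels above the hair cells, had 37, 32, 24 and 29 TPM against 42, 55, 54 and 44 TPM (0.56, standard error 0.12). *Tecta* and *Otog* were the only calls among 20 supporting cell markers tested (0.673% called higher over all genes tested). Of these markers 11 had positive and 9 negative values, with a median of 0.05 that turned to -0.01 with median centring. *Otof*, for the calcium sensor otoferlin that hair cells need for transmitter release, had 15, 15, 11 and 13 TPM against 21, 20, 22 and 23 TPM (0.54, standard error 0.08). It was the only call among 20 hair cell markers (0.673% called higher over all genes tested), where 12 values were positive and 8 negative. *Ocm*, the calcium buffer oncomodulin of outer hair cells, had 326, 230, 424 and 347 TPM against 168, 276, 346 and 146 TPM (-0.67, standard error 0.28, limma adjusted p = 0.126). *Cib2*, a part of the mechanotransduction apparatus, was at 111 to 131 and 100 to 125 TPM (-0.24, standard error 0.10, limma adjusted p = 0.125).

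The other genes among the 15 largest increases are described singly, and no shared role of theirs was tested. *Rims3* had 15, 15, 10 and 10 TPM in the controls against 19, 27, 24 and 27 TPM in *Bai1* tm2b/tm2b, or 0.81 on the log2 scale (standard error 0.13). *Rims4*, its close relative, had 7, 9, 5 and 5 TPM against 11, 14, 13 and 13 TPM (0.81, standard error 0.14). Both encode small RIM proteins of the active zone, and in both the genotypes did not overlap. *Rph3a*, for the vesicle protein rabphilin, had 27, 32, 16 and 20 TPM against 35, 52, 56 and 53 TPM (0.93, standard error 0.19). *Syn1*, for synapsin I, had 31, 36, 20 and 22 TPM against 33, 61, 60 and 55 TPM (0.81, standard error 0.20). *Cpne6*, for a calcium-dependent membrane-binding copine, had 21, 23, 11 and 14 TPM against 24, 32, 36 and 33 TPM (0.76, standard error 0.19). In *Syn1*, library 1 of *Bai1* tm2b/tm2b lay within the control range and the other 3 lay above it.

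*L1cam*, an adhesion molecule that guides and bundles axons, had 12, 13, 8 and 8 TPM against 14, 24, 24 and 24 TPM (log2 fold change 0.90, standard error 0.18). *Mdga1*, a surface protein that restrains neuroligins, had 51, 54, 38 and 39 TPM against 52, 122, 115 and 87 TPM (0.87, standard error 0.22). *Cdh4*, or R-cadherin, had 6, 7, 4 and 4 TPM against 11, 9, 8 and 14 TPM (0.79, standard error 0.18). For *Mdga1*, library 1 of *Bai1* tm2b/tm2b lay within the control range and the other 3 were above all controls, while the groups of *L1cam* and *Cdh4* did not overlap. The remaining genes of the 15 were *Disp2*, a relative of the Hedgehog-releasing protein Dispatched, at 8 to 13 and 13 to 25 TPM (0.81), *Slc24a2*, a sodium, calcium and potassium exchanger, at 5 to 11 and 11 to 18 TPM (0.79), and *Mast1*, a microtubule-associated kinase, at 5 to 10 and 10 to 16 TPM (0.78), with standard errors of 0.18, 0.19 and 0.17. *Col12a1*, *Tnc* and *Kcnk9*, also among the 15, are described with their gene groups.

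**Figure D2:**
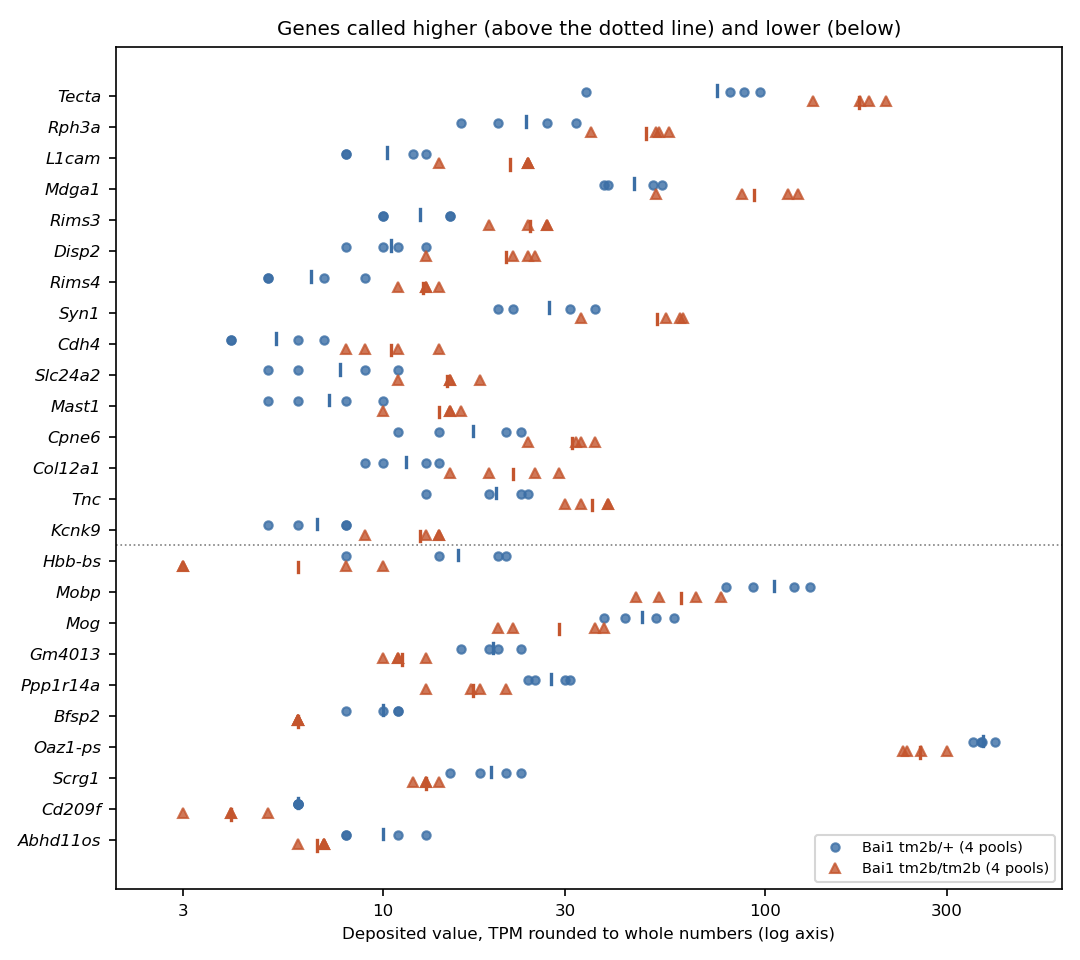
Deposited TPM (horizontal log axis) of the 15 genes with the largest increases, above the dotted line, and the 10 with the largest decreases, below it, in each of 4 *Bai1* tm2b/+ (circles) and 4 *Bai1* tm2b/tm2b (triangles) libraries, with a tick at each group's mean. *Tecta* was at 34 to 97 TPM in the controls and 134 to 208 TPM in *Bai1* tm2b/tm2b, and 1 *Bai1* tm2b/tm2b library lay near the control range for many of the higher genes, such as *Mdga1* at 52 TPM.

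Promoters of the called genes were searched for 4 short motifs on both strands in the RefSeq windows of 300 bases around each start (GRCm38.p6), which held 75 promoters of 57 of the 79 higher calls and 11 of the 18 lower calls. The letters TTCAGCACC, the left part of the element bound by the neuronal repressor REST, occurred in 2 of the 75 promoters (2.67%), beside 0.371% of 11584 promoters of genes tested and the same share of all 32851 in the table. They are shown because both genes, *Mdga1* and *Syn1*, were among the 15 largest increases, with the match in capitals.
Mdga1, chr17:29887833-29888132, minus strand: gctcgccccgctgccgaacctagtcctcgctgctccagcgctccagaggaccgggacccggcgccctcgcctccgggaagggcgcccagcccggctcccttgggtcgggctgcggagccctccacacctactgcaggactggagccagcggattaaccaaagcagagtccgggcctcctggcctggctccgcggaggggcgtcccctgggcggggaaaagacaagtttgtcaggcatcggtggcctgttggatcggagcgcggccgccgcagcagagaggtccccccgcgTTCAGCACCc
Syn1, chrX:20920869-20921168, minus strand: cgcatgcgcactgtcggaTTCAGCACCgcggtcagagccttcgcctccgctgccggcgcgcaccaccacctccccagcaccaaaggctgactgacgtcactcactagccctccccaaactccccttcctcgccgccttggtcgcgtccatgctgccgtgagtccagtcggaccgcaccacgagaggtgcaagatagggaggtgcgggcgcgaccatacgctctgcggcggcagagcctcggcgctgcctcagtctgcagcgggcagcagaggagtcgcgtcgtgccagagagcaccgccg
A GC box (GGGCGG) was present in 61.3% of the 75 promoters, against 63.9% of those of genes tested, and an E-box (CAGCTG) in 20% against 15.2%. A match describes the letters and not binding.

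Collagens, the structural proteins of connective tissue and basement membranes, lay on the higher side. Of 44 collagen genes 35 were tested, 7 were called higher and none lower, 22 were higher at an unadjusted p value under 0.05, and all 35 had positive log2 fold changes (32 with median centring) with a median of 0.42. Over all 11740 genes tested, 0.673% were called higher, 18.5% were higher at that p value and 6207 had positive values. *Col4a1* and *Col4a2*, which form the main network of basement membranes, had 172, 164, 129 and 137 TPM against 171, 327, 268 and 263 TPM (0.63, standard error 0.16) and 131, 125, 99 and 114 TPM against 131, 269, 219 and 202 TPM (0.65, standard error 0.17). *Col12a1*, a collagen that decorates larger fibrils, had 13, 14, 9 and 10 TPM against 25, 19, 15 and 29 TPM (0.76, standard error 0.18). Library 1 of *Bai1* tm2b/tm2b lay within the control range for the basement membrane pair but above it for *Col12a1*. *Col4a1*, *Col4a2* and *Col6a3* were named after their values were seen. The other calls were *Col5a1* (0.61), *Col14a1* (0.60), *Col6a3* (0.60) and *Col16a1* (0.55), whose groups did not overlap. The summed TPM of the 44 genes was 9159 to 9923 in the controls against 10187, 15753, 13492 and 12844 in *Bai1* tm2b/tm2b. After removal of the trend on transcript length and GC content the median was 0.18.

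Of 26 laminins, integrins and fibrillins tested, 4 were called higher (0.673% over all genes tested), 22 had positive values, and the median was 0.29. *Lama2*, a laminin chain of the basement membrane around Schwann cells and muscle, had 57, 52, 45 and 42 TPM against 58, 100, 83 and 83 TPM (0.59, standard error 0.13). *Lama4* was called at 0.54, *Lamb1* at 0.57 and *Fbn2*, for the microfibril protein fibrillin-2, at 0.60. *Tnc*, for tenascin-C, which is not in the list and was among the 15 largest increases, had 24, 23, 13 and 19 TPM against 39, 33, 30 and 39 TPM (0.73, standard error 0.15), with no overlap. *Acan*, the cartilage proteoglycan aggrecan, had 7, 8, 7 and 6 TPM against 8, 14, 11 and 13 TPM (0.52, standard error 0.14). It was the only call of 6 cartilage markers (0.673% called higher over all genes tested). *Ucma*, another cartilage marker, had 187 to 440 TPM against 154 to 257 TPM (-0.49, standard error 0.28, limma adjusted p = 0.234), and *Sox9*, the regulator of chondrocytes, 46 to 51 against 54 to 67 TPM (0.20, standard error 0.07, limma adjusted p = 0.0853).

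Spiral ganglion neuron markers were on the higher side, with 2 called higher of 26 tested (0.673% over all genes tested), 11 higher at an unadjusted p value under 0.05 (18.5% over all genes), 25 with positive values and a median of 0.24. *Syt2*, for a fast calcium sensor of transmitter release, had 16, 20, 13 and 12 TPM against 18, 32, 30 and 27 TPM (0.66, standard error 0.17). In *Syt2*, library 1 of *Bai1* tm2b/tm2b was within the control range and the other 3 were above it. The summed level of the 28 markers was 3920, 4584, 3112 and 3056 TPM in the controls against 3649, 4560, 4947 and 4936 TPM in *Bai1* tm2b/tm2b, which overlapped. Its part in the differences of neuronal genes was not tested.

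Ion channel genes were examined next. Of 16 voltage-gated sodium and calcium channel genes tested, all had positive values, with a median of 0.34. Of these genes 11 were higher at an unadjusted p value under 0.05 (18.5% over all genes tested). Only *Scn8a* was called (0.673% called higher over all genes tested). *Scn8a*, the sodium channel of nodes and initial segments, had 4, 5, 3 and 3 TPM against 5, 8, 7 and 7 TPM (0.62, standard error 0.15). *Cacnb3*, an auxiliary calcium channel subunit, had 52, 48, 43 and 47 TPM against 55, 55, 62 and 59 TPM (0.17, limma adjusted p = 0.0958). Of 35 potassium and HCN channel genes tested, 2 were called higher (0.673% over all genes tested), 27 had positive values and the median was 0.21. *Kcnk9*, a potassium leak channel, had 8, 8, 6 and 5 TPM against 9, 14, 13 and 14 TPM (0.71, standard error 0.15), and the groups did not overlap.

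Among 13 postsynaptic scaffold genes tested, *Shank1* was the only call (0.673% called higher over all genes tested). It had 8, 7, 6 and 6 TPM against 9, 13, 12 and 12 TPM (0.59, standard error 0.11), with no overlap. *Dlg4*, for PSD-95, had 42, 47, 39 and 37 TPM against 44, 54, 49 and 57 TPM (0.19, standard error 0.08, limma adjusted p = 0.111), and *Dlg1* 38 to 47 against 41 to 49 TPM (0.01, standard error 0.07), a sign that turned with median centring. The median of this list was 0.17, and -0.05 after removal of the trend on length and GC content. No NMDA, kainate or delta receptor gene was called of 4 tested. The most abundant of them were *Grik5*, a kainate receptor subunit at 22 to 29 and 29 to 36 TPM (0.25, limma adjusted p = 0.0563), and *Grin1*, the obligate NMDA receptor subunit at 14 to 22 and 17 to 34 TPM (0.53, limma adjusted p = 0.0848).

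Of 46 semaphorin, plexin, ephrin and Eph receptor genes tested, *Plxna4* and *Plxna1*, which encode semaphorin receptors, were called higher (0.673% over all genes tested), 41 had positive values and the median was 0.19. *Plxna4* had 4, 4, 3 and 3 TPM against 6, 8, 6 and 7 TPM (0.70, standard error 0.12), with no overlap. All 17 clustered protocadherins tested, out of 58, had positive values (14 with median centring), with a median of 0.33. *Pcdhac2* was the only call, at 0.51 (0.673% called higher over all genes tested). *Pcdhgc3* and *Pcdhgb6*, with log2 fold changes of 0.19 and 0.34, were not called. Some members of this family share exons within a cluster, so the values are not all independent.

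The lower calls included genes of the myelin made by oligodendrocytes, the glia that wrap the central part of the auditory nerve. *Mobp*, a myelin protein of oligodendrocytes, had 119, 93, 131 and 79 TPM in the controls against 53, 66, 77 and 46 TPM in *Bai1* tm2b/tm2b, and the groups did not overlap. The means were 106 ± 23.7 and 60.5 ± 13.8 TPM (SD, n = 4), a log2 fold change of -0.90 (standard error 0.18, limma adjusted p = 0.0436). *Mog*, on the outer surface of central myelin, had 58, 43, 52 and 38 TPM against 22, 36, 38 and 20 TPM (-0.84, standard error 0.21), and the groups shared 1 value, 38 TPM.

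*Mobp* and *Mog* were the calls of 9 central glia genes tested (0.153% called lower over all genes tested), of which 8 had negative values, with a median of -0.36 that kept its sign under the scalings tried but was 0.38 in the P7 libraries deposited as counts. The summed level of the list was 622, 586, 607 and 401 TPM in the controls against 433, 390, 412 and 487 TPM in *Bai1* tm2b/tm2b. *Olig1*, a transcription factor of the oligodendrocyte lineage, did not follow the myelin genes library by library, with 94, 104, 89 and 56 TPM against 62, 54, 44 and 108 TPM. The level of *Bai1* tm2b/tm2b library 4 was the highest of the 8 for *Olig1* and the lowest for *Mobp* and *Mog*. The promoters of these central myelin calls are shown to set them side by side (GRCm38.p6), with every match to the SOX core ACAAAG (either strand) in capitals.
Mobp, chr9:120149492-120149791, plus strand: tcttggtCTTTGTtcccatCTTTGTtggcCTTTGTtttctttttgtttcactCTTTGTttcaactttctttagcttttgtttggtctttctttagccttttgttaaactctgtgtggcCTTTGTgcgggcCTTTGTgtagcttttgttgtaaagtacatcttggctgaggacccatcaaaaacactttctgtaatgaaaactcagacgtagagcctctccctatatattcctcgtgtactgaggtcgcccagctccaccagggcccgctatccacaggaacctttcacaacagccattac
Mog, chr17:37023349-37023648, minus strand: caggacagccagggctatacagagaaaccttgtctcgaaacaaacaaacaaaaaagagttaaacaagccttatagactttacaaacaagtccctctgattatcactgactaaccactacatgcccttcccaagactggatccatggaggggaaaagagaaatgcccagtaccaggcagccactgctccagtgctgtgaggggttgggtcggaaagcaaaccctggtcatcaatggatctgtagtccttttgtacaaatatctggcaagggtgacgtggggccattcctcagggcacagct
The *Mobp* promoter held 6 matches and that of *Mog* none. Over promoters of genes tested 13.7% held a match, beside 13.3% of the 75 of higher calls and 2 of the 11 of lower calls (18.2%).

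Peripheral myelin genes had values on both sides of 0. Of 21 Schwann cell and peripheral myelin genes, 1 was called lower (0.153% over all genes tested) and none higher. Values were positive for 10 and negative for 11, and the median of -0.03 became 0.08 without scaling beyond TPM. *Mbp*, shared by both kinds of myelin, had 5796, 5270, 5574 and 4803 TPM against 3406, 5016, 5326 and 3558 TPM (-0.44, standard error 0.16, limma adjusted p = 0.0833). The summed Schwann cell markers were at 19147 to 22949 TPM in the controls, with the *Bai1* tm2b/tm2b libraries on both sides of them, at 13521 and 16178 TPM in libraries 1 and 4 and 25846 and 26345 TPM in libraries 2 and 3, and their part in the other differences was not tested.

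The largest decrease was that of *Hbb-bs*, a beta-globin of red blood cells, with 20, 21, 14 and 8 TPM against 8, 10, 3 and 3 TPM (log2 fold change -1.42, standard error 0.36). It has a near-identical neighbour, so its value is uncertain. Of the more abundant globins, *Hba-a1* had 2889, 3755, 3083 and 2935 TPM against 3265, 2955, 1563 and 2051 TPM (-0.53, limma adjusted p = 0.113), and *Hba-a2* 913 to 1173 against 923 to 1761 TPM (0.18, limma adjusted p = 0.441). *Ppp1r14a*, an inhibitor of myosin phosphatase, had 31, 25, 30 and 24 TPM against 21, 13, 18 and 17 TPM (-0.76, standard error 0.14). *Bfsp2*, known as a lens filament protein, had 11, 10, 11 and 8 TPM against 6 TPM in each *Bai1* tm2b/tm2b library (-0.74, standard error 0.09). *Scrg1*, a small secreted protein, had 18, 21, 23 and 15 TPM against 14, 12, 13 and 13 TPM (-0.62, standard error 0.11). None of the last 3 had overlapping groups. The rest of the 10 were *Gm4013*, a predicted gene at 16 to 23 and 10 to 13 TPM (-0.84), *Oaz1-ps*, a processed pseudogene whose reads may come from *Oaz1*, at 351 to 400 and 230 to 300 TPM (-0.66), *Cd209f*, a C-type lectin of a family of near copies, at 6 and 3 to 5 TPM (-0.59), and *Abhd11os*, an antisense transcript at 8 to 13 and 6 to 7 TPM (-0.58). The antisense value cannot be told apart from reads of its partner without knowledge of the strand. *Hist2h2aa1* was the only call of 10 replication histones tested (0.153% called lower over all genes tested), at -0.51, with a near-identical copy in the genome.

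The lists of ribosomal and mitochondrial genes held no call but many small differences in 1 direction. Of 81 cytosolic ribosomal protein genes, 80 had negative values (74 without scaling beyond TPM) and 47 were lower at an unadjusted p value under 0.05, with a median of -0.26. Among all 11740 genes tested, 5533 had negative values and 16.1% were lower at that p value. *Rplp1* had 5134 to 6499 TPM against 5346 to 5905 TPM (-0.14, limma adjusted p = 0.441), a sign that turned when the trend on length and GC content was removed, and *Rps12* had 4332 to 5516 against 3758 to 5000 TPM (-0.33, limma adjusted p = 0.144). *Rps27* stood apart with 38, 99, 201 and 450 TPM in the controls against 208, 9, 11 and 15 TPM in *Bai1* tm2b/tm2b (-2.55, standard error 0.99, limma adjusted p = 0.104), with the largest standard error in the list, and it was named after its values were seen. Of 79 nuclear genes of oxidative phosphorylation, 76 had negative values (70 without scaling beyond TPM), 64 were lower at an unadjusted p value under 0.05 (16.1% over all genes tested) and the median was -0.27. At a limma adjusted p value under 0.05, 25 of the 79 were lower, beside 383 of all 11740 genes tested. *Atp5e*, a subunit of ATP synthase, had 2042, 1975, 2419 and 2393 TPM against 1957, 1657, 1794 and 1662 TPM (-0.43, standard error 0.12, limma adjusted p = 0.0542), with no overlap. *Cox7c* was at 1879 to 2134 and 1602 to 1879 TPM (-0.29, limma adjusted p = 0.0695), and after removal of the trend its log2 fold change was 0.13.

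Large chromatin regulators lay on the other side. All 29 chromatin remodellers and histone methyltransferases had positive values, with either other scaling as well, 27 were higher at an unadjusted p value under 0.05, and the groups did not overlap for 21, but none passed the fold threshold, with a median of 0.29. Among all genes tested, 18.5% were higher at that p value and 14.8% had groups that did not overlap. At a limma adjusted p value under 0.05, 15 of the 29 were higher, beside 559 of all 11740 genes tested. *Chd4*, the motor of the NuRD complex, had 95, 89, 76 and 74 TPM against 99, 113, 102 and 117 TPM (0.26, standard error 0.07, limma adjusted p = 0.0473). *Smarca2*, an ATPase of the BAF complex, was at 60 to 66 and 65 to 86 TPM (0.11, limma adjusted p = 0.258). After removal of the trend on length and GC content the list's median was 0.04 and *Smarca2* was at -0.07. For comparison, 232 zinc finger genes had no call and a median of 0.01, which became -0.05 with median centring, with *Zfp207* at -0.15 and *Zfp706* at -0.11.

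No call was made in the other lists. Macrophage markers had 12 negative values of 13 and 7 lower at an unadjusted p value under 0.05 (16.1% over all genes tested), with a median of -0.27, as in *C1qa*, for a complement subunit, at 122, 120, 125 and 126 TPM against 122, 99, 101 and 104 TPM (-0.32, limma adjusted p = 0.0480), and *C1qc* (-0.27, limma adjusted p = 0.0889). Cholesterol synthesis genes had 15 negative values of 19 (10 without scaling beyond TPM), 7 of them lower at an unadjusted p value under 0.05 (16.1% over all genes tested), with a median of -0.15, and *Hmgcs1* and *Fdps*, enzymes of the early pathway, had -0.21 and -0.15. The medians were 0.13 for 17 proliferation genes (*Pcna* -0.17, *Mcm7* 0.06), 0.08 for 11 activity-induced genes (*Ier2* -0.04, *Jun* 0.18), 0.12 for 15 bone markers (*Ibsp* -0.39, *Bglap* -0.41) and 0.09 for 14 endothelial cell and pericyte markers (*Emcn* -0.13, *Rgs5* -0.36). They were -0.12 for 9 stria vascularis and pigment cell markers (*Cldn11* -0.27, *Atp1b2* 0.04), -0.01 for 11 fibrocyte markers (*Otos* -0.44, *Dcn* 0.03), 0.05 for 4 brain neuron markers (*Zic2* 0.08) and 0.21 for 4 neutrophil markers (*Mmp9* 0.46, *S100a8* 0.21). The signs of *Pcna*, *Ier2*, *Atp1b2* and *Dcn* turned under at least 1 alternative. Of these 8 lists, the fibrocyte median became positive without scaling beyond TPM, that of brain neurons turned with median centring and that of endothelial cells after removal of the length trend. Control library 3 stood apart in 2 of them. Its summed stria and pigment cell markers were 1064 TPM, beside 639 to 748 TPM in the other libraries. Summed fibrocyte markers were 9751 TPM there, beside 5271 to 7789 TPM. *Dct*, of the stria and pigment cell list and named after its values were seen, had 4, 12, 212 and 59 TPM against 22, 21, 29 and 13 TPM. The part of this library's make-up in the other differences was not tested.

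**Figure D3:**
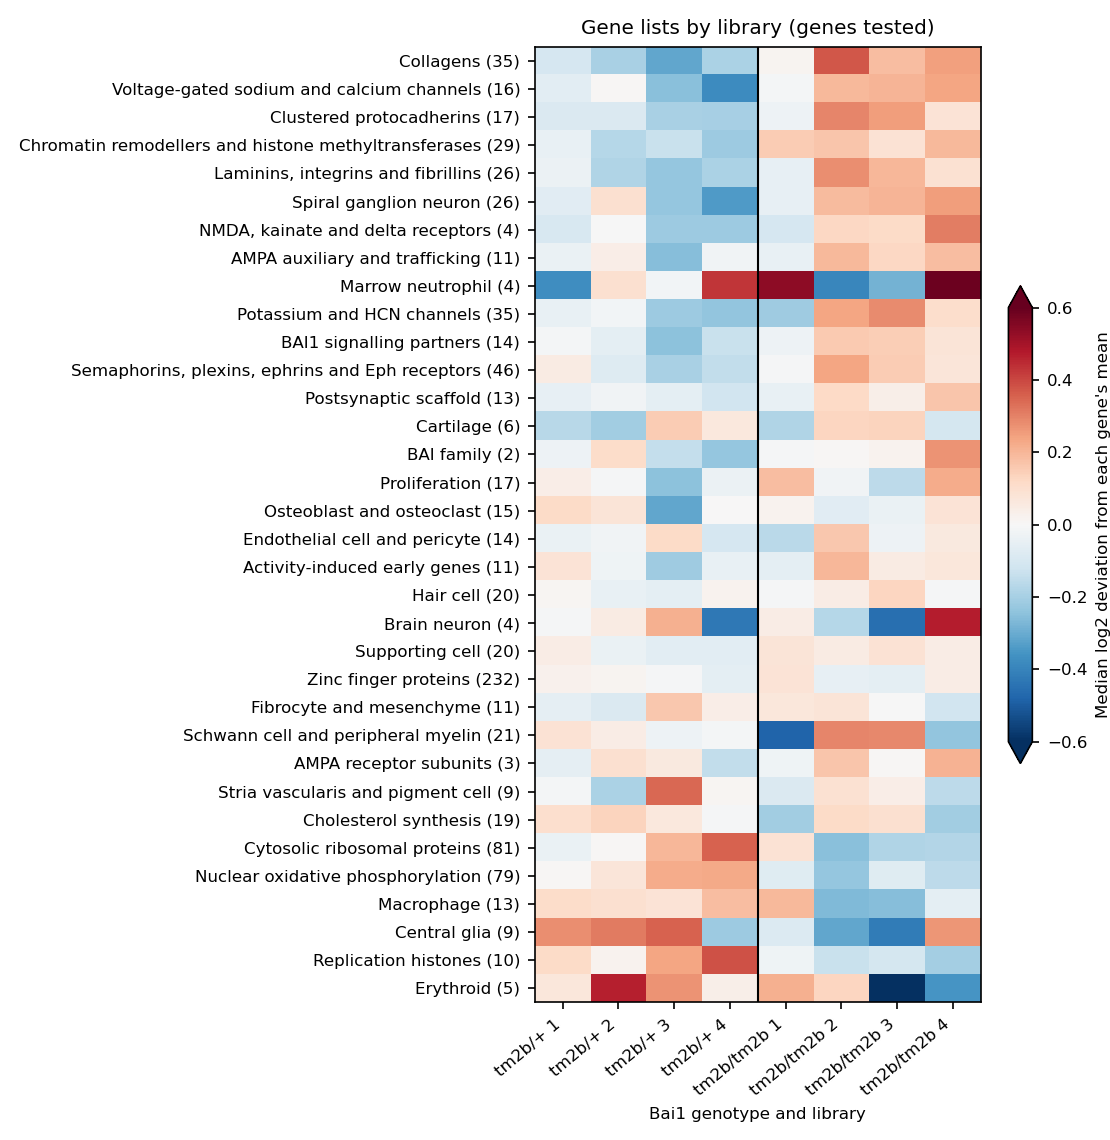
Median log2 deviation of the tested members of each gene list (rows, number tested in parentheses) from their mean over the 8 libraries, in each library (columns), on a colour scale from -0.6 to 0.6. Collagens were at -0.10 to -0.31 in *Bai1* tm2b/+ and at 0.02, 0.37, 0.18 and 0.24 in *Bai1* tm2b/tm2b, while Schwann cell markers split the *Bai1* tm2b/tm2b libraries, at -0.48 and -0.24 in libraries 1 and 4 and 0.29 in libraries 2 and 3.

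The chromatin regulators tested had a median transcript length of 8857 nt and the ribosomal protein genes one of 1094 nt, and the differences of all genes were set against annotated transcript length (the longest transcript in GENCODE M21, known for 11343 of the genes tested). The median log2 fold change was -0.26 for 489 genes of up to 1000 nt, -0.14 for 1825 genes above that and up to 2000 nt, -0.01 for 4621 of up to 4000 nt, 0.12 for 3756 of up to 8000 nt and 0.22 for 652 longer than 8000 nt. Values were positive for 8.79% of the shortest class and 88.3% of the longest. The higher calls numbered 0, 0, 6, 41 and 32 in these classes, and the lower calls with a known length 9, 5, 2, 1 and 0. The median length of the called genes was 7266 nt for the higher and 953 nt for the lower. In the longest class, 4.91% of genes were called higher, beside 0.673% of all genes tested.

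The gradient was not the same in the libraries of a genotype. Deviations of the shortest class were 0.0041, 0.042, 0.21 and 0.25 in the *Bai1* tm2b/+ libraries and 0.012, -0.22, -0.12 and -0.16 in the *Bai1* tm2b/tm2b libraries. Those of the longest class were -0.03, -0.10, -0.10 and -0.20, and 0.08, 0.17, 0.06 and 0.13. Library 1 of each genotype was near 0 in the shortest class, and *Bai1* tm2b/+ library 4 was the steepest in one direction and *Bai1* tm2b/tm2b library 2 in the other. After each library's trend on length and GC content was removed, no gene was called, the smallest limma adjusted p value being 0.126, with 2212 genes below 0.05 before adjustment. Of the 97 calls, 74 higher and 17 lower ones had an unadjusted p value under 0.05 in this fit, beside 2212 of all 11343 genes in it. The median log2 fold changes of the higher and lower calls went from 0.60 to 0.38 and from -0.59 to -0.44. Since the calls were chosen for their values in these same libraries, the counts describe them and test nothing. *Mobp* was at -0.96 and *Tecta* at 0.96 in that fit, while *Col4a1* was at 0.36.

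**Figure D4:**
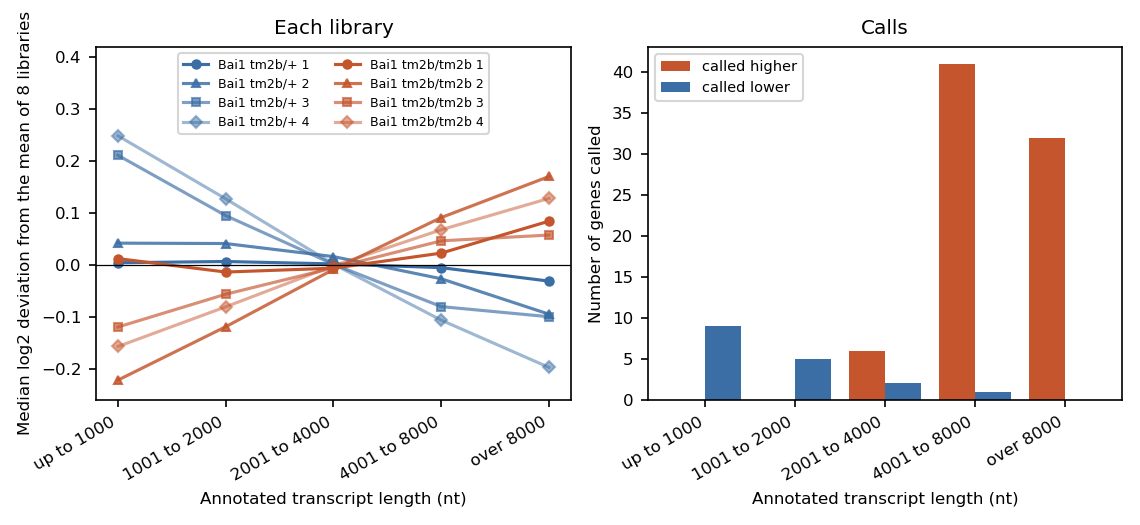
Left, median log2 deviation from the mean of the 8 libraries for genes in 5 classes of annotated transcript length (nt), 1 line for each library. Right, number of genes called in each class. *Bai1* tm2b/+ libraries 3 and 4 ran from 0.21 and 0.25 in the shortest class to -0.10 and -0.20 in the longest, and higher calls were in the classes above 2000 nt.

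The calls were then followed in the 6 other P7 libraries, 3 pools for each genotype, which the fit did not use and which were deposited as estimated counts. Of the 79 higher calls, 26 had positive and 53 negative log2 fold changes there, and the median was -0.06. None was higher at an unadjusted p value under 0.05 in edgeR, where 180 of 11736 genes (1.53%) were, and 9 were lower (11.4%), where 241 genes (2.05%) were. The 9 lower ones included *Mdga1* (-1.05), *Rims3* (-0.90), *Cpne6* (-0.79) and *Rph3a* (-0.70). *Mdga1* had 119, 347 and 232 CPM in the controls against 111, 92.4 and 134 CPM in *Bai1* tm2b/tm2b, and *Rims3* had 6.29, 11.2 and 7.71 CPM against 3.95, 4.66 and 4.88 CPM. *Tecta*, with the largest increase in TPM, had 1132, 782 and 1142 CPM against 647, 1508 and 1044 CPM (0.07, standard error 0.30), and the groups overlapped. Of the 17 lower calls tested there, 14 were negative, 1 of them at an unadjusted p value under 0.05 (*Oaz1-ps*, -0.30), and the median was -0.07. *Mobp* had 144, 160 and 139 CPM against 193, 91.9 and 162 CPM (0.01, standard error 0.24), again with overlap. Medians of gene lists with calls were also compared. The 9 central glia genes had a median of 0.38, with 5 higher and none lower at an unadjusted p value under 0.05 in edgeR. Spiral ganglion neuron markers had a median of -0.29, with 3 of 26 lower and none higher, and collagens one of -0.15, with 2 of 35 lower and none higher.

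The difference between the sets was tested in a limma fit of all 14 P7 libraries. No gene passed at an adjusted p value under 0.05 (0%), the smallest being 0.0667, while 2073 genes had an unadjusted p value under 0.05. These included 68 of the 79 higher and 13 of the 18 lower calls, and the median difference over the calls was 0.65 and -0.55. Since the calls were chosen for their values in the libraries in TPM, these counts describe them and test nothing. The unit of the values and the set of libraries coincide, and the labels describe a batch of 3 and one of 4 pools per genotype at P7 without naming the batch of each library, so that set, unit and batch cannot be told apart.

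In the P22 libraries, also 3 pools for each genotype, 61 of the 79 higher calls were negative, 38 (48.1%) at an unadjusted p value under 0.05 in edgeR, beside 17.1% of all genes followed, and the median was -0.17. Of the 16 lower calls tested, 14 were positive, 9 (56.2%) at an unadjusted p value under 0.05, beside 14% of all genes, and the median was 0.39. *Mobp* had a log2 fold change of 0.92, *Ppp1r14a* of 0.68 and *Mog* of 0.67. The medians at P22 were 0.67 for the central glia genes, -0.23 for the spiral ganglion neuron markers and 0.08 for the collagens. *Cpne6* and *Otof* were among the higher calls with positive values at P22, at 0.73 and 0.54. The median length gradient was opposite, from 0.14 in the shortest class to -0.08 in the longest, and ran from -0.0049 to 0.024 in the P7 libraries in counts.

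**Figure D5:**
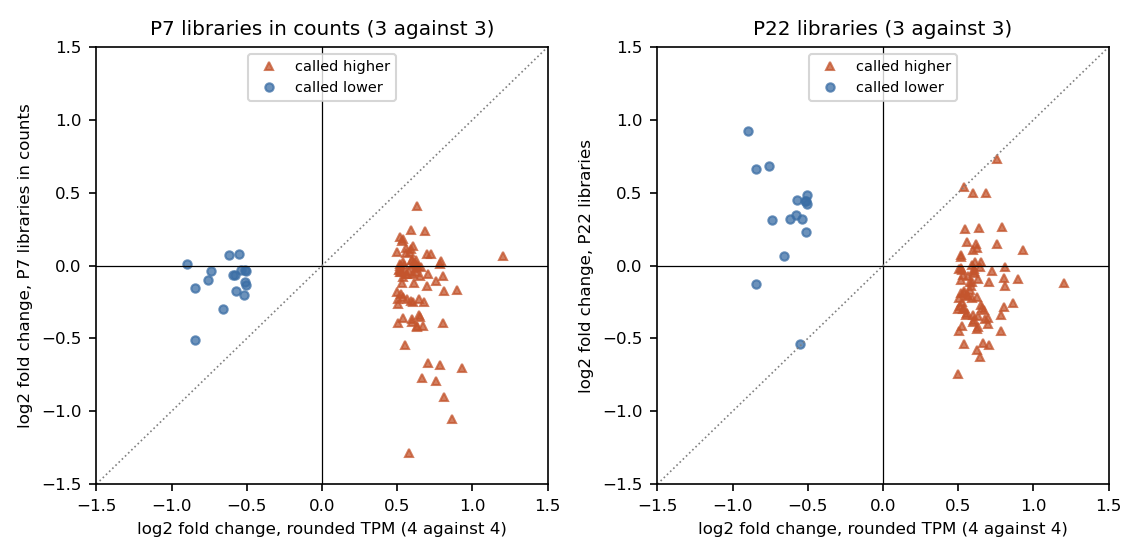
Log2 fold changes of the called genes in the libraries in rounded TPM (horizontal) against those in the P7 libraries in counts (left) and in the P22 libraries (right), with a dotted line of equality. Higher calls (triangles) lay below 0 in 53 of 79 genes on the left and 61 of 79 on the right, and lower calls (circles) lay above 0 in 14 of 16 on the right.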

How the data were processed

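Cochlear RNA of pooled mice was sequenced after poly A selection, and the authors processed the reads with an nf-core RNA pipeline (STAR and Salmon, build mm10, versions and strand setting not given in the sources used here). Of the deposited P7 columns, 8 hold whole numbers that sum to nearly the same total in each library and were read as scores, TPM rounded to whole numbers, from which no depth follows. The deposited estimated counts of the other 6 P7 and the 6 P22 libraries were rounded to whole numbers and summed to between 31108551 and 58807173 in the P7 libraries. Gene levels in TPM depend on the length used by the authors.

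Rows with a mean of at least 5 TPM were scaled by TMM factors, log2 transformed after addition of 1 and fitted with limma 3.58.1 (trend) in R 4.3.3, with Benjamini-Hochberg adjustment. Counts were fitted in edgeR 4.0.16 (quasi-likelihood), and DESeq2 1.42.0 was an alternative. All 14 P7 libraries entered 1 limma fit for the difference between sets. Tested on simulated data, the limma fit recovered 199 of 200 planted changes of 1 on the log2 scale among 11740 genes, with 3 unplanted calls. The simulated noise was independent between genes, without the trends that genes of a library share. The calls had smaller median changes (0.60 higher, 0.59 lower). The simulation therefore gives neither the rate of false calls nor the power in these data. Annotation by symbol (GENCODE M21) reached 23350 of 24411 rows (95.7%), and transcript length is that of the longest transcript. Genes named are the *Bai1* family and AMPA receptor subunits, the 15 largest increases, the 10 largest decreases and, for each list, up to 4 called members or, with fewer than 2 called, also the most abundant ones. Members and lists were chosen with earlier results of these data known. Alternatives were 2 other scalings, 2 pseudocounts, 2 filters, a replicate block, array weights, removal of each library's trend on length and GC content, and leaving out each library. Labels do not say whether pools of a genotype shared litters. Some items that the rule would name are not reported here.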

Additional observations from a re-analysis of the deposited data

Results flagged for a closer look

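Over the named genes, each group of 4 libraries was screened for a library far from the other 3 (Dixon's criterion). Chance meets it in about 1 in 20 groups of normally distributed values, a rate that need not hold for whole numbers. Tied values can meet it by rounding, as in *Gria1* (6, 6, 6 and 5 TPM) and *Abhd11os* (7, 7, 6 and 7 TPM). The criterion was met in 9 of 188 groups. The lone library was *Bai1* tm2b/tm2b 1 for *L1cam* (14 TPM), *Mast1* (10 TPM) and *C1qc* (113 TPM), and *Bai1* tm2b/tm2b 3 for *Abhd11os* (6 TPM) and *Cib2* (125 TPM). In *Bai1* tm2b/+ it was library 4 for *Cib2* (131 TPM) and *Gria1* (5 TPM), and library 3 for *Rgs5* (155 TPM) and *C1qc* (95 TPM).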

How the results depend on the processing

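The count of calls depended on the processing. Against 79 higher and 18 lower genes as reported, no scaling beyond TPM gave 284 and 9, median centring 57 and 44, a pseudocount of 0.5 gave 85 and 20, a pseudocount of 5 gave 39 and 10, a minimum mean of 20 TPM gave 50 and 5, and array weights gave 134 and 25. Of the 79 and 18, 79 and 9 were still called without scaling, 57 and 18 with median centring, 39 and 10 with a pseudocount of 5, 37 and 5 with the stricter filter and 75 and 16 with array weights. No filter on low values (15922 genes tested) and removal of the length and GC trend gave 0 and 0, with 4391 and 2212 genes below 0.05 before adjustment in limma. Leaving out 1 library gave 0 to 271 higher and 0 to 61 lower calls. All 79 and 18 kept an unadjusted p below 0.05 (limma) in each of those fits. Since the calls were chosen in libraries that these fits share, that count describes them and tests nothing. Same-numbered libraries did not deviate together (correlations of -0.204, -0.0740, -0.0120 and -0.231), so the numbers were not taken to pair them, and the fit with a replicate block gave 0 and 0 calls, with 3214 genes below 0.05 before adjustment. The difference between the P7 sets passed for 0 genes as reported and for 0 to 23 with 1 library left out (23 without *Bai1* tm2b/tm2b library 1, 2 without *Bai1* tm2b/tm2b library 5 and 1 without *Bai1* tm2b/+ library 2). The P7 libraries in counts gave 0 calls in edgeR (763 genes below 0.05 before adjustment) and 48 in DESeq2.

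Small differences changed sign. *Adgrb1*, at 0.02, was at -0.035 with median centring, -0.023 with array weights, -0.30 with the trend removed and -0.070 to 0.12 with 1 library left out. Log2 fold changes without scaling were *Gria1* at 0.048, *Gria4* at 0.068 and *Ier2* at 0.069. With median centring they were *Rac1* at -0.023, *Rhog* at -0.026, *Dlg1* at -0.031, *Atp1b2* at -0.0023 and *Dcn* at -0.012, and with array weights *Dlg1* at -0.014 and *Dcn* at -0.011. With the trend removed they were *Rac1* at -0.042, *Dlg1* at -0.083, *Atp1b2* at -0.041, *Pcna* at 0.050, *Ier2* at 0.0058, *Rplp1* at 0.080, *Cox7c* at 0.13 and *Smarca2* at -0.066. With 1 library left out, the ranges that crossed 0 were -0.11 to 0.016 for *Gria1*, -0.11 to 0.016 for *Gria4*, -0.018 to 0.051 for *Rac1*, -0.032 to 0.057 for *Rhog*, -0.022 to 0.055 for *Dlg1*, -0.0064 to 0.11 for *Atp1b2* and -0.033 to 0.073 for *Dcn*. Over the named genes other than *Adgrb1* and all alternatives, 1116 values kept direction and side of the threshold, 403 lost the threshold, 6 gained it and 31 changed sign. The cause of these changes was not tested. No depth is known for the 8 libraries, so precision rests on 4 pools per genotype, and genes under 5 TPM were not tested.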
